A study of Mus musculus with 12 samples.

Results

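The replication-dependent histone genes were examined in ChIP-seq of microglia from WT and *Cx3cr1*-deficient mice, for Rpb2, a core subunit of RNA polymerase II, and for H3K27Ac, a histone H3 acetylation that marks promoters and enhancers in use. Members were all peaks whose nearest gene carries a symbol beginning with Hist1h, Hist2h, Hist3h or Hist4h, which gave 59 of 26706 Rpb2 peaks (45 symbols) and 55 of 55862 H3K27Ac peaks (44 symbols). No measured value entered this choice. WT mice carried both intact copies of *Cx3cr1*, the fractalkine receptor, and KO mice had both copies disrupted by the coding sequence of eGFP, so that KO cells also differ from WT by eGFP. All mice were C57BL/6J and 2 mo old. Each library came from microglia of 3 pooled mice of 1 sex, sorted as CD11b positive with low CD45, and fixed in 1% PFA, with 1 pool labelled female and 1 labelled male for each genotype and mark. Every comparison of genotypes therefore has n = 2 pools against 2.

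These genes make the bulk histones that package newly copied DNA. They lie in clusters and mostly lack introns. Their mRNAs end in a conserved stem-loop in place of a poly(A) tail, which the stem-loop binding protein recognises. Their transcription is highest in S phase, through the coactivator Npat and elements specific for each histone type, whereas replication-independent variants such as H3.3 are made throughout the cell cycle. Microglia of the healthy adult brain divide rarely.

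Total reads per library ranged from 10395804 to 44332626. Reads in peaks made up 11.2 to 15.1% of the total in the Rpb2 libraries. In H3K27Ac they made up 15.9% in the WT female pool and 61.1 to 65.3% in the others. Y-linked peaks held 136 reads in the Rpb2 library labelled WT female against 0 in the KO female pool, which goes against that label. It is called the library labelled WT female, and results that rest on it are given with and without it. At *Cx3cr1* itself, 1 of 25 Rpb2 peaks passed an adjusted p of 0.05 (edgeR quasi-likelihood test, Benjamini-Hochberg over 26706 peaks). Its levels, in reads scaled by library (CPM), were 327 and 290 for the WT pools and 35.1 and 50.7 for the KO pools. The log2 fold change, KO over WT, was -2.86 ± 0.26 (SE). That peak lies 21725 bp downstream of the transcription start site (TSS) and outside the coding exon. The peak over the coding exon gave 0.58 ± 0.28 with an adjusted p of 0.424, so Rpb2 does not check the disruption. Of the defining markers, 9 of 10 microglial genes had an Rpb2 peak within 1000 bp of the TSS, against 0 of 5 for neurons, for blood monocytes and neutrophils and for lymphocytes, 1 of 5 for astrocytes and for oligodendrocytes, and 2 of 5 for endothelium. H3K27Ac peaks covered the start site of 8 of 10 microglial genes, 0 of 5 for neurons, for monocytes and neutrophils and for lymphocytes, 1 of 5 for astrocytes, and 2 of 5 for oligodendrocytes and for endothelium. By the rule used for Rpb2, with the distance that the table gives from a peak to the TSS, 0 of 10 microglial and 2 of 5 oligodendrocyte genes had an H3K27Ac peak. In pooled cells, a change in the share of cells that use a gene cannot be told apart from a change in each cell.

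RefSeq annotates 67 such genes in the mouse genome (GRCm38, the build of the mm10 files). The *Hist1* cluster on chromosome 13 falls into a block of 23 genes at chr13:21715711-22043658 and a block of 31 genes at chr13:23531044-23934913, 1.49 Mb apart. *Hist2* holds 10 genes at chr3:96219885-96270192, *Hist3* holds 2 at chr11:58948911-58955192, and *Hist4* is the single gene *Hist4h4* at chr6:136803993-136804431. By histone type there are 6 H1, 18 H2A, 18 H2B, 12 H3 and 13 H4 genes.

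The printed stretches show which promoter elements the histone types share and which are more frequent in 1 type. For each type, the 120 bases before the start site are printed for the gene with the highest and the lowest Rpb2 density (for H3, for 2 genes described with the genotypes). They come from RefSeq on GRCm38, run 5′ to 3′ on the gene's strand, and stop at the base before the annotated start. Capitals mark the TATA box TATAAA on the gene's strand and, on either strand, the CCAAT box (ATTGG in reverse), the octamer ATTTGCAT, the H1 box AAACACA and the run GGTCCGC, which belongs to the H4 element bound by Hinfp. In *Hist1h3i* the reverse complement of that run overlaps a CCAAT box.
Hist1h1e (chr13:23622559-23622678, minus strand): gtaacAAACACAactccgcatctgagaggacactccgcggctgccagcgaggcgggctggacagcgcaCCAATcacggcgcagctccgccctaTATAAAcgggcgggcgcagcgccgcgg
Hist1h1a (chr13:23763548-23763667, plus strand): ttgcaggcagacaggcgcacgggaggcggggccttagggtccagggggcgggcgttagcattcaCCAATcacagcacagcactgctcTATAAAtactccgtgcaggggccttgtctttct
Hist2h2ac (chr3:96220881-96221000, minus strand): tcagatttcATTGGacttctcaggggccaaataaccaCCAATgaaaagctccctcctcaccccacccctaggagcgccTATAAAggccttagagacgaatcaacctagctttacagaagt
Hist1h2ab (chr13:23750968-23751087, plus strand): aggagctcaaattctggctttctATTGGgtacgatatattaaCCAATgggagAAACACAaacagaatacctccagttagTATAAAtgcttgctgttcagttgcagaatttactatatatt
Hist1h2be (chr13:23585971-23586090, minus strand): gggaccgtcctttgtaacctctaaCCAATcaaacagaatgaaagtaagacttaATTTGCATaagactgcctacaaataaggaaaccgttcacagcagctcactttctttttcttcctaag
Hist1h2bk (chr13:22035701-22035820, plus strand): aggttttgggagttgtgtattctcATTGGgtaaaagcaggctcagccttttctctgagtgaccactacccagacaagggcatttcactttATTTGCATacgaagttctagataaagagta
Hist1h3e (chr13:23562386-23562505, minus strand): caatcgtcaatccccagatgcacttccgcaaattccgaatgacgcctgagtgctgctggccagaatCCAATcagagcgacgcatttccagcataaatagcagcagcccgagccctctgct
Hist1h3i (chr13:21783398-21783517, minus strand): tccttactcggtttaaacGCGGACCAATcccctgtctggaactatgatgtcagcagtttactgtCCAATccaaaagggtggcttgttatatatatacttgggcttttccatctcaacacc
Hist1h4c (chr13:23698459-23698578, minus strand): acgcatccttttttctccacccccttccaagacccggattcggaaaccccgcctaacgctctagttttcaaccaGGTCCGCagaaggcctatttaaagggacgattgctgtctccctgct
Hist1h4k (chr13:21750554-21750673, minus strand): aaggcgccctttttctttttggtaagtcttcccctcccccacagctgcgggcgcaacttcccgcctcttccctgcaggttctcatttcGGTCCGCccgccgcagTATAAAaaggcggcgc

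The promoter table held 62 of the 67 genes. In a window from 250 bases before to 50 after the start, TATAAA occurred in 30 of 62 histone promoters (48.4%) against 8.32% of 32851 promoters of the same length. CCAAT occurred in 53 (85.5%) against 37.4%. It was present in every H1, H2A, H2B and H3 promoter of the table and in 3 of 12 H4 promoters. ATTTGCAT, the site of the octamer factor Pou2f1, occurred in 14 (22.6%) against 1.74%, in 7 H2A and 7 H2B promoters. Since H2A and H2B genes often face each other, both genes of a pair can count the same copy. AAACACA occurred in 9 (14.5%) against 7.18%, and 5 of these were among the 6 H1 promoters. GGTCCGC, searched after the sequences had been seen, occurred in 11 (17.7%) against 3.16%, and 9 of these were H4 promoters. A match describes the letters of the window and is not a measured site. In the printed stretches, *Hist1h1e* and the H2A gene *Hist1h2ab* hold the H1 box and *Hist1h1a* does not. Both H2B genes hold the octamer, and GGTCCGC is in both H4 genes and in the H3 gene *Hist1h3i*.

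The 3′ stem-loop, just after which the transcript is cut and which takes the place of a poly(A) tail, was found in 63 of the 67 genes in 6 forms. They are printed as DNA with the stem in capitals and the loop in lower case. The Rpb2 peaks beyond the gene ends described later are centred past them.
Main form (41 genes of H1, H2A, H2B and H3): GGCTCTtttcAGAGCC
Loop with A (9 genes, *Hist1h3e* and *Hist2h2ab* among them): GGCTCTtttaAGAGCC
H4 form (8 genes, *Hist1h4c* and *Hist4h4* among them): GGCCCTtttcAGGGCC
H4 form, loop with T (2 genes, *Hist1h4i* and *Hist2h4*): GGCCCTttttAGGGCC
H4 form with another stem (2 genes, *Hist1h4j* and *Hist1h4b*): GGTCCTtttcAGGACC
Single form (1 gene, *Hist2h2ac*): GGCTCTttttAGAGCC

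The 12 H4 genes with a stem-loop had 3 forms, built on 2 stems that no other type had. The 51 genes of the other types shared 3 forms that differ in a single loop base.

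Rpb2 sat on the start sites. Of the 59 member peaks, 42 lay within 100 bp of an annotated start site, 9 were centred 86 to 511 bp past the 3′ end of a gene and 8 lay elsewhere. Of the 42, 40 overlapped the start site, and those of *Hist1h3g* and *Hist2h2ab* ended 80 and 97 bp from it. The start-site peaks were centred a median of 31.5 bp downstream of the start, with a range of -233 to 100.5 bp, and 37 of 42 were centred inside the gene. Member peaks had a median width of 234 bp near a TSS, close to the 247 bp of all near-TSS peaks, so the start and the end of these short genes could be resolved.

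**Figure D1:**
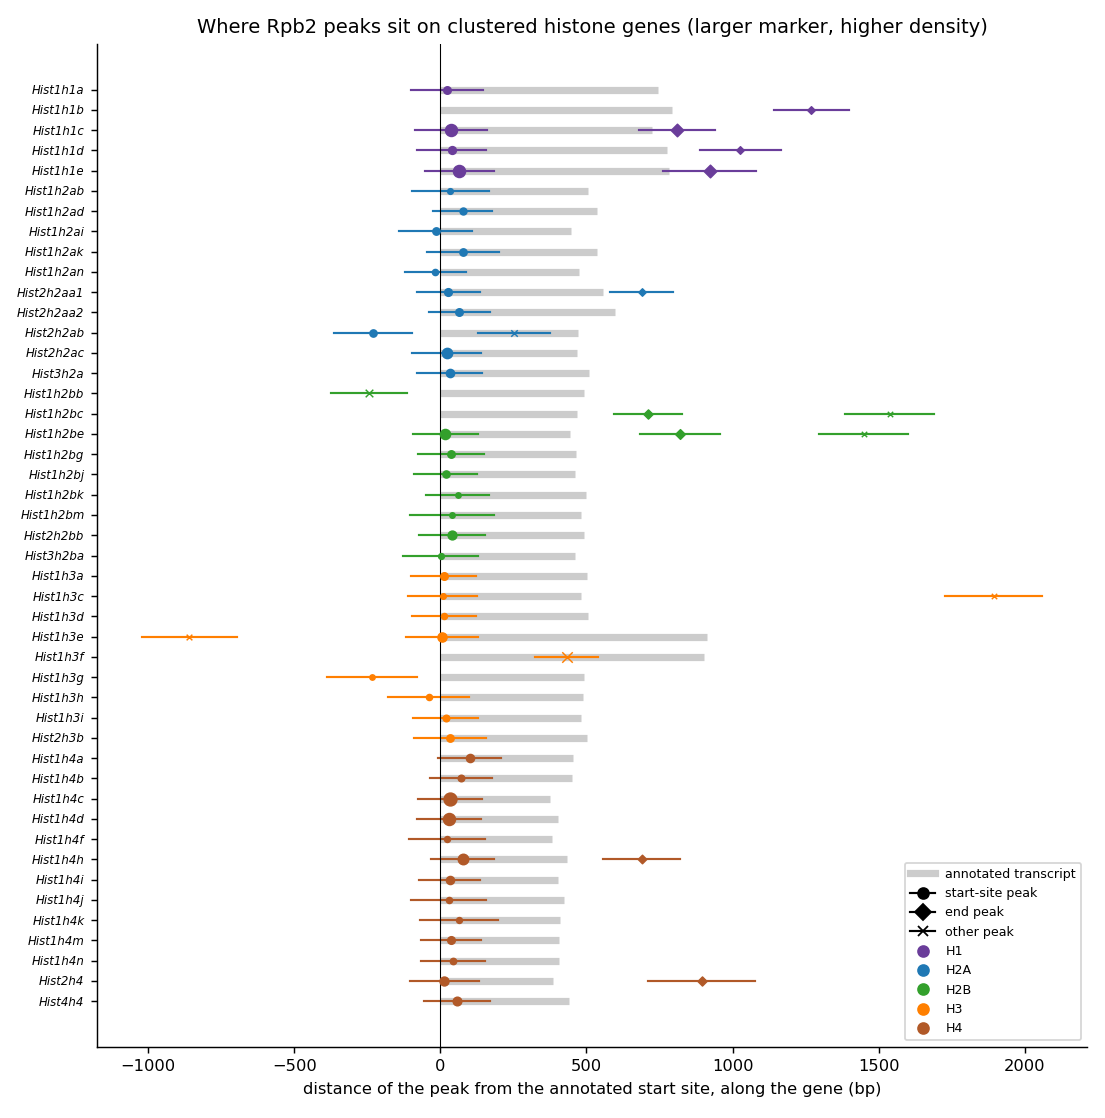
Position of Rpb2 peaks on clustered histone genes. The x axis is the distance along the gene from the annotated start site (bp), grey bars are annotated transcripts, coloured lines are peak widths by histone type, and circles, diamonds and crosses mark start-site, end and other peaks, larger for higher density. Most circles sit just right of 0, at a median of 31.5 bp, and the diamonds lie past the ends of the grey bars; the peak at -9585 bp from the Hist1h1c start is off the scale.

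Reads were converted to a density, CPM per kb of peak after TMM scaling, so that genes could be ranked. The 53 member peaks within 1000 bp of a TSS had a median density of 677 CPM per kb, 2.42 times the 279 CPM per kb of all 10125 near-TSS peaks. In the library labelled WT female, WT male, KO female and KO male pools the ratio was 2.77, 1.90, 2.73 and 1.98, so members were above the other peaks in each of the 4 libraries. Their median percentile was 85.7 in the mean of the libraries, and 88.6, 77.2, 88.0 and 77.9 in the single libraries. Both pools labelled female were above both labelled male. By reads per peak with no length scaling, the percentile was 83.7. The members spread widely, with 18 above the 90th percentile and 14 below the 50th.

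**Figure D2:**
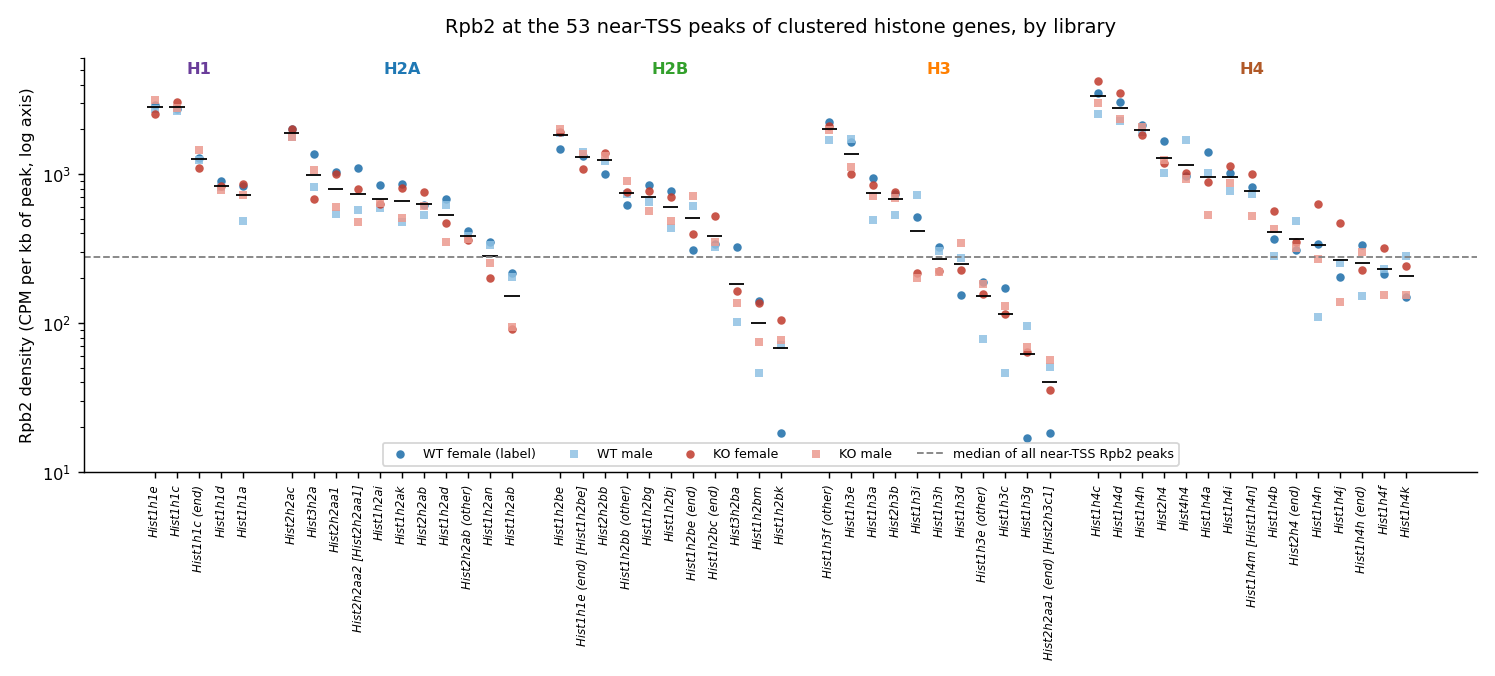
Rpb2 density at each of the 53 near-TSS member peaks, grouped by histone type. The y axis is CPM per kb of peak on a log axis, points are single libraries (blue, WT; red, KO; circles, pools labelled female; squares, male), black bars are means of 4 libraries, the dashed line is the median of all near-TSS peaks at 279, labels give the gene at which the peak lies and, in brackets, the symbol in the deposited table where it differs, and Hist1h4c at 3336 and Hist1h1e at 2849 stand at the top while the lowest points lie below 20.

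Among the H1 genes, which encode the linker histones, *Hist1h1e* had 2934, 2765, 2538 and 3160 CPM per kb in the library labelled WT female, WT male, KO female and KO male pools, a mean of 2849 ± 263 (SD, n = 4 libraries). *Hist1h1c* was close to it at 2812 ± 171. *Hist1h1d* (835 ± 48.9) and *Hist1h1a* (727 ± 175) were lower, and did not differ from each other beyond their spread. *Hist1h1e* and *Hist1h1c* were each above *Hist1h1d* and *Hist1h1a* in all 4 libraries. *Hist1h1b* had no start-site peak, and the testis-specific *Hist1h1t* had none of Rpb2.

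The H2A and H2B genes encode the dimer that flanks the H3 and H4 tetramer within the nucleosome core. *Hist2h2ac* was the highest H2A gene at 2015, 1775, 2023 and 1773 CPM per kb, a mean of 1896 ± 142. It shares its start region with the divergent *Hist2h2be*, so the peak cannot be assigned to 1 of the 2. The lowest H2A gene was *Hist1h2ab*, at 215, 205, 91.9 and 93.6. Among H2B genes, *Hist1h2be* was highest at 1479, 1889, 1912 and 2016, and *Hist1h2bk* lowest at 18.3, 71.5, 105 and 76.5, a peak of 3 to 68 reads. The order of high and low gene held in each library for both types.

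H3 genes were lower as a group, with a median of 269 CPM per kb over 11 peaks, against 1272 for 5 H1, 666 for 11 H2A, 600 for 11 H2B and 771 for 15 H4 peaks. The H1 median is that of the *Hist1h1c* end peak. The H3 set includes the *Hist2h3c1* peak described below and a second *Hist1h3e* peak upstream of that gene's start, and no median is given without them. The H3 median was the lowest of the 5 types in all 4 libraries, at 327, 306, 223 and 219. The highest H3 peak, at 2236, 1688, 2108 and 1973, belonged to *Hist1h3f*. It was centred 432 bp past the annotated start of a transcript of 903 bases and at -470 bp from its end, close to where the start-site peaks of *Hist1h3i* (-464 bp) and *Hist2h3b* (-467.5 bp) lie from theirs. *Hist1h3e*, with an annotated transcript of 911 bases, had its peak at the annotated start and was second at 1374 ± 361. The lowest peak under an H3 symbol, labelled *Hist2h3c1* (18.2, 50.8, 35.3 and 56.3), lies 134 bp past the end of *Hist2h2aa1* and had 30.3% of its 51-base windows unique in the genome. *Hist1h3g* was next, at 17.0, 96.1, 63.5 and 69.5.

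H4 genes hold the most marked start sites, since all 13 had an Rpb2 peak there. *Hist1h4c* had the highest density of all members, 3521, 2555, 4263 and 3006, a mean of 3336 ± 733. *Hist1h4d* followed at 2802 ± 588 and *Hist1h4h* at 1996 ± 136. *Hist1h4c* was above *Hist1h4d* in each of the 4 libraries, by less than the spread of either between libraries. The lowest was *Hist1h4k*, at 150.7, 281, 243 and 154. All these genes encode the same H4 protein, so the range of means from 207 to 3336 CPM per kb is a range among promoters of 1 product.

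The 2 *Hist1* blocks differed in level. The block with *Hist1h4c* had a median of 753 CPM per kb over 27 peaks and the other, which runs from *Hist1h2bl* to *Hist1h2bj*, 337 over 13. The ratio was 2.41, 1.94, 1.76 and 2.85 in the 4 libraries, the same direction in each. The lower block also held more repeated sequence, with a median of 74.9% unique windows per peak against 100%, and only uniquely mapped reads were counted. Among peaks with at least 70% unique windows, a limit chosen after seeing the data, the medians were 442 (8 peaks) and 753 (27 peaks). With at least 90% they were 284 (3) and 794 (22). In *Hist2*, the H2A genes *Hist2h2ab* (633 ± 93.1, and 382 ± 24.8 at a second peak inside the gene) and *Hist2h2aa1* and its copy (795 ± 258 and 737 ± 276) were below *Hist2h2ac*. *Hist2h2bb* (1237 ± 168), *Hist2h3b* (681 ± 104) and *Hist2h4* (1283 ± 282) share one acetylated domain with each other. *Hist2h2aa1* and *Hist2h2aa2* are near-identical copies whose peaks had 30.5% and 31.9% unique windows, and their counts are uncertain. *Hist3h2a* reached 984 ± 298 and its neighbour *Hist3h2ba* 182 ± 99.8, lower in each library. *Hist4h4*, alone on chromosome 6, had 975, 1695, 1027 and 928, a mean of 1156 ± 361.

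Rpb2 also had peaks centred past the stem-loop of 9 genes, and those of *Hist1h1c* and *Hist1h1e* overlapped the stem-loop itself. At *Hist1h1e*, where the peak was centred 141 bp beyond the annotated end, its density was 44.96, 50.8, 42.8 and 43.5% of the start-site peak in the library labelled WT female, WT male, KO female and KO male pools. At *Hist1h1c* it was 47.0, 46.6, 35.8 and 52.5%, and at *Hist1h1d*, centred 252 bp beyond the end, 36.8, 78.3, 60.8 and 88.5%. The 3 H1 genes thus kept between 35.8 and 88.5% of their start-site density at the end. *Hist2h4* had 18.5 to 47.2% and *Hist1h2be* 20.9 to 35.2%. *Hist1h4h* had 7.94 to 15.7% although it ranked 5 of 42 by start-site density, and *Hist2h2aa1* 1.76 to 9.43%. *Hist1h4c* and *Hist1h4d*, which had higher start-site densities, had no end peak called. The deposited table gives the end peak of *Hist1h1e* the symbol *Hist1h2be*. Each gene was read here by its shortest RefSeq transcript. The deposited annotation also holds a longer *Hist1h2be* transcript of 2 exons. It starts near the *Hist1h1e* end peak, and its 3′ UTR runs beyond the *Hist1h2be* stem-loop. Whether Rpb2 at the end peaks of *Hist1h1e* and *Hist1h2be* belongs to that transcript was not tested. *Hist1h1b* and *Hist1h2bc* had an end peak and no peak at the start site. WT and KO overlapped in this percentage at 6 of the 7 genes with both peaks. At *Hist1h1e* the KO values were the lower, by less than the range at *Hist1h1c*, and the difference was not tested.

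**Figure D3:**
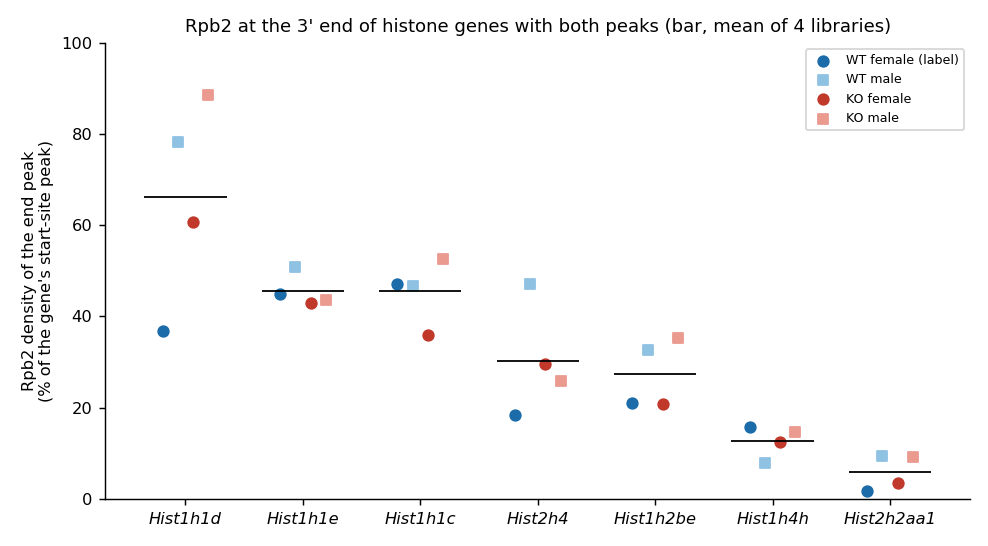
Rpb2 density of the end peak as a percentage of the same gene's start-site peak, for the 7 genes with both. Points are the 4 libraries, bars their means, and genes are ordered by the mean from 66.1% at Hist1h1d to 6.00% at Hist2h2aa1; blue and red points overlap in range at every gene except Hist1h1e.

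The 6 Rpb2 members farther than 1000 bp from a TSS were tested in a fit of all 26706 peaks, of which 2 (0.00749%) passed an adjusted p of 0.05. None of the 6 did by the edgeR quasi-likelihood test, and 1 of 6 had an unadjusted p under 0.05, against 12.2% of all peaks. That one, 1538 bp downstream of the *Hist1h2bc* start, held 4 and 3 reads for the WT pools against 78 and 52 for the KO pools. Its log2 fold change was 2.75 ± 0.91, with an adjusted p of 0.267. Its WT and KO pools did not overlap. That held at 42.1% of near-TSS peaks, and the share of all 26706 was not counted. With so few WT reads, the peak may have entered the set through KO alone. Its higher KO level is therefore not separate evidence of a difference. With the library labelled WT female left out, and the remaining WT pool assumed to vary like KO, the change was 3.07 ± 0.96 with an adjusted p of 0.0310, in a fit that called 8.28% of all peaks.

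A second distant peak, at -9585 bp from the *Hist1h1c* start, lay over an annotated element. RefSeq records Hist1h1cR1 there as a predicted regulatory module with a conserved non-consensus GATA1 site that acted as an erythroid enhancer in transfected K562, a human erythroleukaemia line. Its sequence on GRCm38 is printed with the letters GATA in capitals, which occur once when both strands are searched. The record gives no position for its site, so these letters are not shown to be it.
Hist1h1cR1 (chr13:23729156-23729264, plus strand): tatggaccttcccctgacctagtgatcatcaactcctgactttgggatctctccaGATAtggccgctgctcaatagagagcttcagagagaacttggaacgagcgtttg
The peak had 61, 82, 206 and 91 reads in the library labelled WT female, WT male, KO female and KO male pools, or 47.4, 54.0, 37.5 and 35.5 CPM. Its log2 fold change was -0.47 ± 0.39 (adjusted p = 0.649). GATA occurred in 34% of 3586 Rpb2 peaks away from a TSS on the same 4 chromosomes, which were of other lengths, so the letters alone are common. An H3K27Ac peak of 3279 bp, at 21.4 ± 2.69 CPM per kb, covered the element. The other 4 distant peaks were the end peaks of *Hist1h1b* and *Hist1h1d* and peaks past *Hist1h3c* and *Hist1h2be*, with adjusted p of 0.496 to 0.989 between the genotypes.

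H3K27Ac covered the clusters in broad domains. Member peaks had a median width of 1793 bp against 669 bp for all peaks tested. Near a TSS, where H3K27Ac is wider in general, the figures were 2268 bp for 33 members and 1783 bp for 9904 peaks. Over the 33 peaks that covered a histone start site the median density was 14.6 CPM per kb, and 4.22 over the 22 that covered none. One peak often served several genes, since 16 peaks covered 2 or more start sites, together 40 genes, with up to 5 under 1 peak.

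The widest was *Hist2h4*, at 9661 bp over *Hist2h4*, *Hist2h3b* and *Hist2h2bb*, with 153, 204, 200 and 192 CPM in the WT female, WT male, KO female and KO male pools. It was also the most read peak of *Hist2*. The widest of *Hist1*, *Hist1h2bf* at 6781 bp, covered the starts of *Hist1h2ae*, *Hist1h2bg*, *Hist1h2bf*, *Hist1h2ad* and *Hist1h3d*, with 90.1, 115, 85.7 and 89.0 CPM. *Hist1h1c* was the most read of *Hist1*, at 91.3, 138, 139 and 136. *Hist2h2be* had the highest density of the members, 32.6 ± 3.62 CPM per kb, over the starts of *Hist2h2ab*, *Hist2h2ac* and *Hist2h2be*. *Hist3h2a* had 72.9, 76.9, 82.2 and 84.1 CPM over 3758 bp and *Hist3h2ba* 13.8, 1.92, 6.92 and 6.18 over 975 bp. *Hist4h4* had 51.4, 67.0, 66.6 and 71.1 over 2744 bp. The WT female pool, with its lower share of reads in peaks, was the lowest of the 4 at *Hist2h4*, *Hist1h1c*, *Hist2h2be* and *Hist4h4*, and the part of that share in the difference was not tested.

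At the low end, 9 member peaks had the narrowest width in the table, were called in 1 genotype's list alone, and had 0 reads in at least 1 library and at most 25 in any. In *Hist2* these were a peak each of *Hist2h2ab*, *Hist2h2be*, *Hist2h3c2* and *Hist2h2bb*. No fold change is given for them. The other *Hist2* peaks over no start site were *Hist2h2be* at 1781 bp and *Hist2h2bb* at 1175 bp, of 10.7 and 19.4 CPM per kb. The copies *Hist2h2aa2* and *Hist2h2aa1* lay under peaks of 6.78 and 17.7.

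Both marks met at most histone starts. With an Rpb2 peak within 100 bp of the RefSeq start site and an H3K27Ac peak over it, 43 of 67 genes had both, 14 had H3K27Ac alone, 1 had Rpb2 alone (*Hist1h4n*) and 9 had neither. Rpb2 was at the start of 4 of 6 H1, 10 of 18 H2A, 9 of 18 H2B, 8 of 12 H3 and 13 of 13 H4 genes. H3K27Ac covered 4, 15, 15, 11 and 12 of them. The 14 genes under H3K27Ac alone were *Hist1h2bn*, *Hist1h2bp*, *Hist1h2ah*, *Hist1h2ag*, *Hist1h2af*, *Hist1h2bh*, *Hist1h3f*, *Hist1h2ae*, *Hist1h2bf*, *Hist1h2ac*, *Hist1h2bc*, *Hist1h2bb*, *Hist1h3b* and *Hist2h3c2*. *Hist1h2bn*, *Hist1h2bp*, *Hist1h2ah*, *Hist1h2ag*, *Hist1h2ae* and *Hist1h2bf* are each the partner of a divergent H2A and H2B pair whose other gene had the Rpb2 peak, which ended 103 to 161 bp from their own start. The split depends on the distance. With 0, 100 or 200 bp for both marks, distances chosen after seeing the data, 39, 43 or 50 genes had both and 18, 15 or 8 had H3K27Ac alone, while all 13 H4 genes had Rpb2 at each of them. *Hist1h3f* is the gene whose Rpb2 peak lies 432 bp inside, and *Hist1h2bb* had its peak 244 bp upstream of the start, at 754 ± 116 CPM per kb. The 9 with neither were *Hist1h1b*, *Hist1h2bq*, *Hist1h2ao*, *Hist1h2ap*, *Hist1h2br*, *Hist2h3c1* and the 3 testis genes *Hist1h1t*, *Hist1h2ba* and *Hist1h2aa*. An H3K27Ac peak of *Hist1h1t*, called in both genotypes, began 28 bp inside the gene. Another, of *Hist1h1b* (chr13:21777970-21780292) and also called in both, covered the 3′ part of the gene and not its start. Only uniquely mapped reads were counted, and the start regions of the 43 had a median of 88.4% unique 51-base windows. Of the 9, *Hist1h2bq*, *Hist1h2ao*, *Hist1h2ap* and *Hist1h2br* had 0%, so that their lack of a peak says nothing of use, and *Hist2h3c1* had 20.3%. *Hist1h1b*, *Hist1h1t*, *Hist1h2ba* and *Hist1h2aa* had 100%. Among genes with 1 mark alone, *Hist1h4n* had 16.7% and *Hist2h3c2* 20.3%, so their missing mark is uncertain. By the symbols of the deposited tables, 27 genes had both marks within 1000 bp of a TSS.

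Of the near-TSS Rpb2 members, 98.1% overlapped an H3K27Ac peak, as did 98.2% of all near-TSS Rpb2 peaks, so this share is that of promoters in general. Over the 43 genes the densities of the marks ranked alike, with a Spearman rho of 0.62 as a description. The genes share 41 Rpb2 and 31 H3K27Ac peaks, sequence uniqueness, and libraries within each mark, and they are not independent points. *Hist1h1c* and *Hist1h1e* were high in both marks, and *Hist1h2bk* and *Hist1h3g* low in both. *Hist1h4c* had the highest Rpb2 but a middling 17.2 CPM per kb of H3K27Ac, and *Hist1h3c* the reverse, at 116 of Rpb2 under a shared peak of 25.6.

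**Figure D4:**
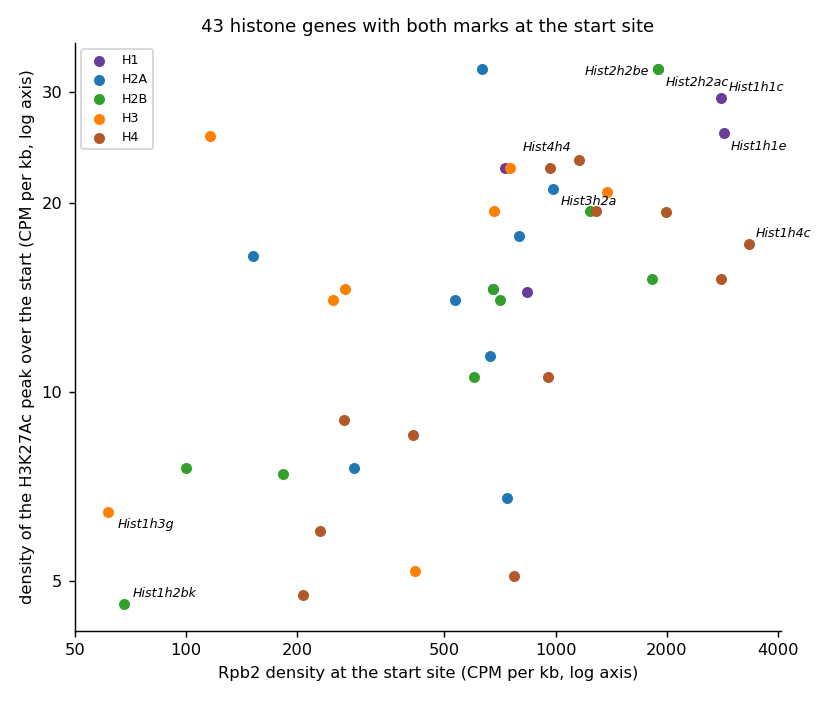
Density of Rpb2 (x axis) and H3K27Ac (y axis) at the start sites of the 43 genes with both marks, CPM per kb on log axes, coloured by histone type, means of 4 libraries. Points rise together from Hist1h2bk at 67.8 and 4.60 to Hist1h1c at 2812 and 29.3, and genes under 1 acetylated domain share a y value.

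KO was then compared with WT. Rpb2 at the histone genes was not called different at any member. By the edgeR quasi-likelihood test, 0 of 53 near-TSS members and 0.0% of 10125 near-TSS peaks had an adjusted p under 0.05. By DESeq2 0 of 53 members and 0.198% of peaks did. At an unadjusted p under 0.05 there were 4 members (7.55%), against 10.6% of all peaks. Their pools did not overlap at 15 of 53 (28.3%, 7 higher and 8 lower in KO), against 42.1% of all peaks. The median log2 fold change of members was 0.05 and that of all near-TSS peaks 0.02. It lay above 0 at 29 members and below at 24, and within 0.5 of 0 at 43. The SD over members was 0.45 and over all peaks 0.74, a comparison in which members have more reads. Summed over the 53 peaks, members took 11416, 9941, 11090 and 10054 CPM in the library labelled WT female, WT male, KO female and KO male pools, so the KO sums lay between those of WT. With the library labelled WT female left out the median was 0.10.

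**Figure D5:**
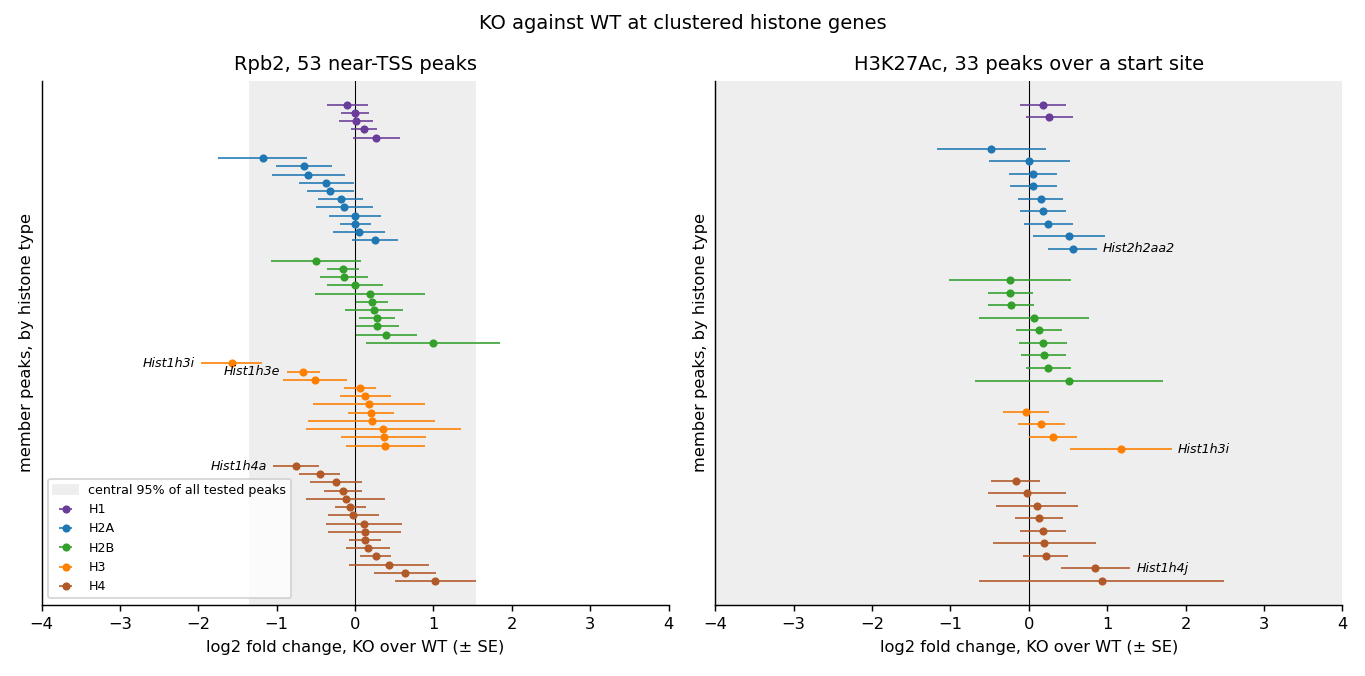
Log2 fold change of KO over WT (x axis, points ± SE) at 53 near-TSS Rpb2 member peaks (left) and 33 H3K27Ac member peaks over a start site (right), by histone type. The grey band is the central 95% of all tested peaks, -1.34 to 1.53 for Rpb2 and -8.30 to 4.30 for H3K27Ac (wider than the axis); 52 of the 53 Rpb2 points lie inside it, Hist1h3i at -1.58 outside, and the 3 named genes in each panel have the lowest p among the peaks drawn.

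The lowest p among the Rpb2 members belonged to *Hist1h3i*, at 520 and 725 CPM per kb in WT and 216 and 201 in KO. Both KO pools were below both WT pools. Its log2 fold change was -1.58 ± 0.39, with an adjusted p of 0.146 by edgeR, and 69.4% of its windows were unique. *Hist1h3e* had 1652 and 1715 in WT and 1008 and 1120 in KO, at -0.66 ± 0.21 (adjusted p = 0.260). *Hist1h4a* had 1406 and 1022 in WT and 892 and 535 in KO, at -0.75 ± 0.29 (adjusted p = 0.359). In these 3 the pools did not overlap, with KO lower. *Hist1h2ab*, the fourth with an unadjusted p under 0.05, was at -1.18 ± 0.57 (adjusted p = 0.473). At the genes with the most Rpb2 the log2 fold changes were 0.26 ± 0.19 at *Hist1h4c*, -0.0016 ± 0.17 at *Hist1h1e*, 0.0043 ± 0.20 at *Hist2h2ac*, 0.22 ± 0.21 at *Hist1h2be* and 0.06 ± 0.20 at *Hist1h3f*. *Hist1h1a*, *Hist1h2bk* and *Hist1h4k* gave 0.27 ± 0.30, 0.99 ± 0.86 and -0.12 ± 0.50. With the library labelled WT female left out, so that the spread came from the KO pools alone, *Hist1h3i* was at -1.79 ± 0.47 with an adjusted p of 0.0145. Then *Hist1h4n*, at a peak with 24.9% unique windows, was also called, at 2.04 ± 0.59 (adjusted p = 0.0327), in a fit that called 2.34% of all peaks. Leaving out any other library called 0 of 53.

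By type, the median was 0.01 for H1, -0.19 for H2A, 0.22 for H2B, 0.18 for H3 and 0.11 for H4, with 5, 11, 11, 11 and 15 peaks. It was -0.01 and 0.12 in the 2 *Hist1* blocks and 0.03 in *Hist2*, whose 10 peaks ranged from -0.37 to 0.36. *Hist3h2a* and *Hist3h2ba* gave -0.31 ± 0.29 and -0.50 ± 0.58, and *Hist4h4* -0.45 ± 0.26. None of these was past the threshold, and differences between the types were not tested.

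H3K27Ac was likewise not called different at any member, with a wider error. By the edgeR quasi-likelihood test 0 of 55 members passed an adjusted p of 0.05, against 0.0233% of 55798 peaks, and 0 of 55 passed an unadjusted 0.05, against 4.95%. By DESeq2, 0 of 46 members with an adjusted p passed, against 0.642%. Pools did not overlap at 16 members (29.1%, 11 higher and 5 lower in KO), against 27.4% of all peaks. The median log2 fold change was 0.13 over the members and -0.21 over all peaks. Over the 33 members that covered a start site it was 0.18, with 26 above 0, beside 0.05 over all near-TSS peaks. This set was chosen after seeing the data, and the share of all near-TSS peaks above 0 is not given. Over the 22 that covered none the median was -0.18. These include the narrow peaks of few reads described above, for which no fold change is given. The sign of that median is therefore not interpreted. The summed level was 1693 and 2005 CPM in WT and 2036 and 1991 in KO, lowest in the WT female pool.

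The 3 lowest p belonged to *Hist1h4j* (7.06 and 14.4 CPM in WT, 23.3 and 15.98 in KO, log2 fold change 0.85 ± 0.44), a peak at -3936 bp from the *Hist1h4c* start (3.39 and 14.7 in WT, 3.65 and 1.77 in KO, -1.75 ± 0.96) and *Hist1h3i* (4.80 and 5.91 in WT, 13.8 and 10.6 in KO, 1.18 ± 0.65), each with an adjusted p of 0.811 by edgeR. WT and KO overlapped at the second and not at the others. At *Hist1h3i* H3K27Ac was higher in both KO pools and Rpb2 lower in both, and neither difference was past the threshold. Its H3K27Ac peak was called in the KO list alone. Its way into the peak set therefore favoured KO, and the higher KO level is not separate evidence of a difference. The same holds for the peak near *Hist1h2bj* named below, which was also called in the KO list alone. *Hist2h4*, *Hist2h2be*, *Hist3h2a*, *Hist4h4* and *Hist1h1c* gave 0.13 ± 0.31, 0.18 ± 0.30, 0.15 ± 0.29, 0.21 ± 0.29 and 0.26 ± 0.30. *Hist1h2bf* gave -0.23 ± 0.29, *Hist3h2ba* -0.24 ± 0.78, and the peaks over *Hist2h2aa2* and *Hist2h2aa1* 0.51 ± 0.46 and 0.56 ± 0.31. With the WT male pool left out, so that the WT female pool with few reads in peaks stood alone for WT and was assumed to vary like KO, 5 members were called and all were higher in KO: *Hist1h1c* at 0.59 ± 0.16 (adjusted p = 0.00634), *Hist1h4h* at 0.53 ± 0.19, *Hist1h2bb* at 0.62 ± 0.22, the peak over *Hist2h2aa1* at 1.01 ± 0.29 and *Hist1h4j* at 1.47 ± 0.52. That fit called 14.8% of all peaks. With the WT female pool left out, and the remaining WT pool assumed to vary like KO, a peak near *Hist1h2bj* with 0 reads in the remaining WT pool and the distant *Hist1h4c* peak (-2.44 ± 0.72, adjusted p = 0.0468) were called, beside 1.53% of all peaks.

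The genes that serve and surround the clusters were read from the same fits. Of 19 genes of histone mRNA synthesis and processing, 14 had a near-TSS Rpb2 peak and 0 were called, with 1 lower in KO at an unadjusted p under 0.05. *Slbp*, the stem-loop binding protein, had 244, 243, 229 and 274 CPM (0.04 ± 0.24), and *Npat* and *Casp8ap2*, which act at the histone locus body, gave 0.11 ± 0.68 and 0.62 ± 0.45. Near-TSS H3K27Ac peaks were found for 17 of the 19, 0 called. Of 11 replication-independent variants 9 had Rpb2 and 9 H3K27Ac, 0 called in either, with 1 lower for Rpb2 and 1 higher for H3K27Ac at an unadjusted p under 0.05. *H3f3b*, which encodes H3.3, had 4365 ± 486 CPM per kb, above *Hist1h4c*, with a log2 fold change of 0.19 ± 0.15, and *H2afz* and *H2afj* had 879 ± 129 and 270 ± 44.1. Of 24 cell cycle and replication genes, 11 had Rpb2 and 19 a near-TSS H3K27Ac peak, with 0 called in either and 1 higher in KO at an unadjusted p under 0.05 in each, *Mcm6* for Rpb2 (7, 7, 84 and 55 reads, 1.98 ± 0.77) and *Ccne1* for H3K27Ac (1.87 ± 0.88), both named after their values were seen. *Mki67* was at 126 ± 78.1 CPM per kb of Rpb2, from 4, 30, 125 and 76 reads (1.30 ± 0.71, adjusted p = 0.540), and *Top2a* had no near-TSS Rpb2 peak and 1.70, 3.996, 5.32 and 5.06 CPM of H3K27Ac. Of 27 other genes in or beside the clusters 14 had Rpb2, 0 called and 3 lower at an unadjusted p under 0.05, where 10.6% of all near-TSS peaks passed in either direction. Of the 27, 12 had a near-TSS H3K27Ac peak by the distance given, 0 called and 1 higher at an unadjusted p under 0.05. Over all peaks 4.95% passed in either direction. That rule misses wide peaks, and 16 of the 27, *Hfe* among them, had their start site under an H3K27Ac peak. *Hfe*, the iron regulator that lies among the *Hist1* genes, had 474 ± 73.4 (0.36 ± 0.33).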

How the data were processed

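Rpb2 and H3K27Ac ChIP-seq of 4 libraries per mark was analysed from the deposited raw read counts per peak. According to the methods and the file headers, the authors aligned reads by Bowtie 2 (mm10) and discarded those without a unique position. They used HOMER for peaks, filtered these by IDR for reproducibility between pools, merged the WT and KO lists and counted reads in each merged peak without normalization. Input libraries were not used here. No column lacked a sample (0 columns).

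Peaks averaging 4 or more reads in either genotype were tested with edgeR 4.0.16 (quasi-likelihood, TMM, Benjamini-Hochberg, 0.05) in R 4.3.3, on 10125 Rpb2 peaks within 1000 bp of a TSS and on 55798 H3K27Ac peaks. Rpb2 members farther away were read in a fit of 26706 peaks. SE is the absolute log2 fold change over the square root of F. Density is CPM of reads in tested peaks per kb of peak. Alternatives were DESeq2 1.42.0, limma 3.58.1 loess offsets, total reads, other filters and leaving out each pool. Tables and figures used Python 3.11.15, pandas 2.3.3, numpy 2.4.6, scipy 1.17.1 and matplotlib 3.10.9. Sequences are RefSeq's (GRCm38), and uniqueness was counted in 51-base windows.

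The members, gene lists and tests were chosen with earlier results of these data known. Members named with values were those of highest and lowest Rpb2 density in each type, all of *Hist2*, *Hist3* and *Hist4*, the 3 lowest p per mark, and the widest and most read H3K27Ac peak of each cluster. Others, such as *Hist1h1c*, *Hist1h1d*, *Hist1h4d*, *Hist1h4h* and genes with end or distant peaks, were chosen after their values were seen. Replicates are pools of mice, so p-values measure the spread between pools.

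On simulated counts, changed peaks were drawn only from those averaging 20 or more reads, so recovery below that was not measured. The Rpb2 fit (10125 peaks) recovered 46% of peaks changed by 1.5 and 92% changed by 3 on the log2 scale. Of its 141 calls, 3 were unchanged peaks. The H3K27Ac fit (55798 peaks) recovered 36% and 61%, and 160 of 257 called were unchanged, 132 of them with under 20 reads.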

Additional observations from a re-analysis of the deposited data

How the results depend on the processing

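Scaling by total reads in place of TMM moved the median log2 fold change of members from 0.05 to 0.24 for Rpb2 and from 0.13 to 0.79 for H3K27Ac, and called 0 members of either. Leaving out 1 pool gave medians of -0.09 to 0.10 for Rpb2 and 0.09 to 0.20 for H3K27Ac, with 0 to 2 of 53 near-TSS Rpb2 members called, 0 to 1 of 6 distant ones and 0 to 5 H3K27Ac members. The calls came without the library labelled WT female (Rpb2, 2 and 1; H3K27Ac, WT female pool, 2) or without the WT male pool (H3K27Ac, 5), and the cause was not tested. The count of genes with both marks was 27 by symbol near a TSS, 45 by overlapping peaks and 43 at RefSeq start sites (39, 43 and 50 with 0, 100 and 200 bp for both marks), settings chosen after seeing the data, as were the limits on unique windows by block, GGTCCGC, the set without repeated sequence (Rpb2 median 0.04) and the H3K27Ac peaks over start sites. Among named members, 250 Rpb2 values kept direction and side of the threshold or moved by less than their spread, 30 moved and 1 passed the threshold, and for H3K27Ac 171, 21 and 4. DESeq2 called 20 of 10125 near-TSS Rpb2 peaks against 0 by edgeR. For H3K27Ac it called 240 of the 37407 peaks with an adjusted p, against 13 of 55798 by edgeR. None of these peaks was a member.

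With sex label as a replicate block, 0 Rpb2 members near a TSS, 0 distant ones and 0 H3K27Ac members were called, and the medians were 0.02 and 0.15. Pools of the same label did not deviate together over all peaks (correlations of 0.00012 for Rpb2 and 0.0043 for H3K27Ac). Over the members the correlations were 0.237 and 0.0747. Of the 53 Rpb2 members, 25 were higher in the pool labelled female in both genotypes against 8 in the male. The like counts over all near-TSS peaks were not taken, so these are not shown to be particular to the members. The library labelled WT female also holds the Y-linked reads that go against its label. In 100 bases before the start, TATAAA was found in 18 promoters, CCAAT in 47, ATTTGCAT in 6, AAACACA in 2 and GGTCCGC in 10. Changes under 1.5 on the log2 scale were not simulated.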
